A study of Mus musculus with 12 samples.

Results

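The olfactory bulb (OB) of wild-type (WT) mice was compared between 6 and 2 months of age, an interval of normal adult maturation. The 6 arrays whose labels give WT mice and either age were used, 3 at 6 months and 3 at 2 months, of the 12 arrays in the series, and all 22206 gene probesets were tested. The WT mice at 6 months and at 2 months were female littermates of the Tg2576 line on a C57BL/6/SJL background. The other 6 arrays came from female Tg2576 mice of the same 2 ages, which overexpress human APP with the Swedish mutation from the prion promoter. They served for comparison and entered the shared estimate of the spread behind each WT p-value. Each array held total RNA from OB tissue, 3 mice in each group by the series' design, and the labels do not say whether replicates were matched between ages. The ages are those of the labels.

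The OB is the first relay of smell in the brain. Axons of olfactory sensory neurons in the nasal epithelium end there on mitral and tufted cells, whose output is shaped by GABAergic granule and periglomerular interneurons. New interneurons reach the mouse OB through the rostral migratory stream throughout life, and sensory activity induces immediate early genes in OB neurons. Because bulk tissue was measured, fewer cells of a type and less RNA per cell cannot be told apart.

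The values were log2 intensities after robust multi-array averaging (RMA), with array medians between 8.24 and 8.27. Correlations between the WT arrays across probesets lay between 0.981 and 0.994. Replicate 2 of the WT 6-month group stood apart, with correlations of 0.981 to 0.986 with the other WT arrays, while replicate 1 of this group was closest to replicate 3 of the WT 2-month group (r = 0.994). The mean of 9 hybridization control probesets, bacterial and phage sequences added to every sample, was 12.43 and 11.92 in WT 6-month replicates 2 and 3, against 11.33 in replicate 1 and 11.19, 11.32 and 11.52 in the WT 2-month arrays. The granule and periglomerular interneuron genes averaged 10.45, 10.39 and 10.49 in the WT 6-month arrays and 10.33, 10.36 and 10.42 in the WT 2-month arrays, so the defining interneurons of the OB were measured in every sample. A running number at the end of the sample labels also separates the ages, so age and whatever that number records cannot be told apart.

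A probeset was called higher at a fold change above 1.3 and lower at one below 0.7, each with an unadjusted p under 0.01 in a moderated linear model (limma). Under this rule 322 probesets were higher at 6 months (1.45% of those tested) and 65 were lower (0.293%). Without any limit on the fold, 464 were higher and 295 lower at p under 0.01, and 759 in all compares with the 222 that this p would give by its definition if nothing differed. With the limit below 1.0 set as far away as the one above it (1/1.3), 322 were higher and 215 lower, so the excess of rises rests in part on the uneven limits. An unadjusted p under 0.05 was found for 2667 probesets (12%), the share against which the counts at that p below are to be read. After Benjamini-Hochberg adjustment in limma only Irak3 had an adjusted p under 0.05, and the next lowest adjusted p was 0.220. The lowest value at 6 months exceeded the highest value at 2 months in 1603 probesets (7.22%), and the reverse held in 1367 (6.16%). The called changes were small, with a median log2 fold change of 0.46 among the rises and -0.59 among the falls. Without WT 6-month replicate 2 there were 197 higher and 43 lower calls, and without replicate 3 there were 333 and 116. Without WT 6-month replicate 1 there were 615 and 243, and without WT 2-month replicate 3 there were 617 and 234. With the mean of the hybridization controls as a covariate 93 were higher and 32 lower. When each of the 12 arrays was left out in turn, 82 of the 322 rises and 7 of the 65 falls kept their call every time.

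Irak3, which encodes a kinase-like inhibitor of Toll-like and interleukin-1 receptor signalling, had the largest named rise. Its log2 values were 8.03, 8.70 and 8.34 in the WT 6-month arrays, against 7.13, 7.11 and 7.26 in the WT 2-month arrays. The lowest 6-month value lay well above the highest 2-month value, and the change of 1.19 ± 0.14 (log2 fold change ± SE, here and below), or 2.28-fold, had an adjusted p of 0.016 in limma. The call held whichever of the 12 arrays was left out. In Tg2576 mice Irak3 was again higher at 6 months, with 8.29, 8.48 and 8.18 at 6 months against 7.51, 7.47 and 7.46 at 2 months, a change of 0.84 ± 0.14.

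Among probesets with a gene symbol, the next largest rises that held without any 1 array were those of Usp46, Scp2, 1110051M20Rik, Zfp414, Ugcg and Kcnj6. Usp46, a deubiquitinase, had 10.15, 10.51 and 10.20 at 6 months and 9.34, 9.50 and 9.90 at 2 months, a change of 0.71 ± 0.15. Ugcg, the glucosylceramide synthase that starts glycosphingolipid synthesis, had 8.44, 8.64 and 8.67 at 6 months and 7.89, 7.68 and 8.14 at 2 months (0.68 ± 0.13). In both genes the ages did not overlap, which was a condition for being named among the largest rises. Scp2, a peroxisomal sterol carrier protein, rose by 0.70 ± 0.18, Kcnj6, a G protein-gated potassium channel subunit, by 0.67 ± 0.17, and Zfp414, a zinc finger protein, by 0.68 ± 0.15. The uncharacterised 1110051M20Rik rose by 0.69 ± 0.17. Each of these 6 calls was kept when any 1 array was left out. Usp46 (0.46), Scp2 (0.47), 1110051M20Rik (0.51) and Zfp414 (0.52) lost their calls with the hybridization controls as a covariate, and Ugcg and Kcnj6 kept theirs. The remaining 5 of the 12 largest named rises were less stable. Sycp1, a protein of the meiotic synaptonemal complex, had 6.87, 7.70 and 7.07 at 6 months and 6.07, 5.86 and 6.78 at 2 months, and its change of 0.97 ± 0.27 lost its call without WT 6-month replicate 2 or WT 2-month replicate 1 or 2 (0.73 to 0.89). Krt20, an epithelial keratin, rose by 0.82 ± 0.22, a call lost without WT 6-month replicate 3 or WT 2-month replicate 1 (0.56 to 0.72). Pigm, a mannosyltransferase of GPI anchor synthesis, rose by 0.75 ± 0.19, a call lost without WT 2-month replicate 1 (0.66). Col10a1, a collagen, rose by 0.70 ± 0.19 and lost its call without WT 6-month replicate 2 or 3 or WT 2-month replicate 1 (0.57 to 0.63). Muc15, a membrane mucin, rose by 0.67 ± 0.21 and lost its call without WT 6-month replicate 2 or 3 or WT 2-month replicate 1 or 2 (0.50 to 0.66).

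**Figure D1:**
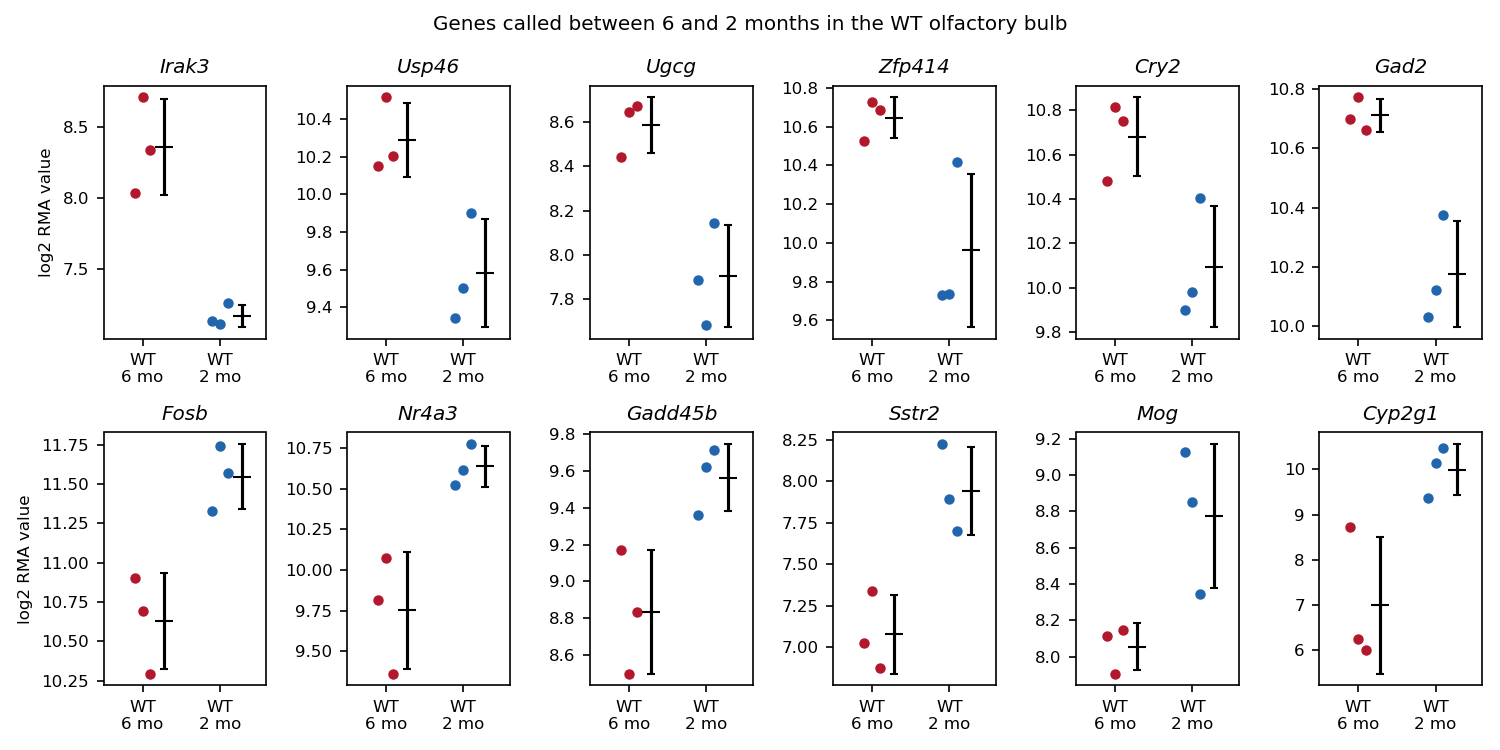
Log2 RMA values of 12 genes called between the ages in WT mice, with the 3 arrays at 6 months (red) left of the 3 at 2 months (blue) and the mean ± SD beside each group, on axes that do not start at 0. The ages do not overlap in any of the 12 genes, but the largest rises and falls were chosen among calls without overlap. Irak3 lies between 8.03 and 8.70 at 6 months and between 7.11 and 7.26 at 2 months.

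Outside the gene lists, the falls of Sstr2, Ccn3 and Zfp57 held without any 1 array. Sstr2, a somatostatin receptor, had 7.03, 7.34 and 6.88 at 6 months, against 8.23, 7.90 and 7.70 at 2 months, a change of -0.86 ± 0.16. Ccn3, a matricellular protein, had 8.70, 8.91 and 8.71 at 6 months and 9.81, 9.75 and 9.33 at 2 months (-0.86 ± 0.22). Zfp57, a KRAB zinc finger protein that maintains genomic imprints, had 7.70, 7.90 and 7.99 at 6 months and 9.16, 8.71 and 8.21 at 2 months (-0.83 ± 0.18). The ages did not overlap in these 3 genes, which was a condition for being named among the largest falls. Their calls held whichever array was left out, while that of Ccn3 was lost with the hybridization controls as a covariate (-0.76). Nmbr, the neuromedin B receptor, changed by -0.76 ± 0.23, a call lost without WT 6-month replicate 1 or 3 or WT 2-month replicate 1 or 2 (-0.80 to -0.59). Mpped1, a metallophosphoesterase domain protein, changed by -0.77 ± 0.24, a call lost without WT 6-month replicate 1 or 2 or WT 2-month replicate 1 or 2 (-0.81 to -0.65). Spg7, the paraplegin subunit of a mitochondrial inner membrane protease, had 7.55, 7.02 and 7.47 at 6 months and 8.60, 8.45 and 7.58 at 2 months. Its change of -0.86 ± 0.22 lost its call without WT 2-month replicate 1 (-0.67) and with the hybridization controls as a covariate (-0.49). Ndst4, a heparan sulfate-modifying enzyme, had 9.43, 9.62 and 9.79 at 6 months and 11.17, 10.58 and 9.93 at 2 months, and its change of -0.95 ± 0.32 lost its call without WT 6-month replicate 1, 2 or 3, WT 2-month replicate 1 or 2, Tg2576 6-month replicate 1 or Tg2576 2-month replicate 2 or 3 (-1.04 to -0.64). The largest fall, in Cyp2g1, is described with the nasal genes.

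Immediate early genes were the gene group with the most falls. They encode transcription factors and signalling regulators that neuronal activity induces within minutes. Of 30 such genes measured, 9 were called lower (0.293% of all probesets were), none higher, and 19 had an unadjusted p under 0.05 in limma. Their median log2 fold change was -0.44, against -0.01 over all probesets, and 28 of 30 lay below 0. In 14 of the 30 every 6-month value was below every 2-month value, as in 6.16% of all probesets. The mean over the 30 genes was 9.40, 9.29 and 9.07 in the WT 6-month arrays and 9.48, 9.77 and 9.73 in the WT 2-month arrays, which did not overlap.

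The cAMP response element and its core letters TGACG, through which activity-regulated CREB acts, are known features of promoters of this class, so the upstream sequences of 4 of the 9 called genes are shown. Each is the 250 bases before the annotated start, on the gene's strand, from RefSeq (build GRCm38.p6), with TGACG and its reverse complement CGTCA in capitals.
Fosb (chr7:19310046-19310295, minus strand): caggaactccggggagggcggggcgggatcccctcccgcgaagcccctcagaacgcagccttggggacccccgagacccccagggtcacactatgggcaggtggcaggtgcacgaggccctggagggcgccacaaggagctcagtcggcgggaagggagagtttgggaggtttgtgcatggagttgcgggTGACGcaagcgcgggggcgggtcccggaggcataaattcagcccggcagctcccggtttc
Nr4a3 (chr4:48045055-48045304, plus strand): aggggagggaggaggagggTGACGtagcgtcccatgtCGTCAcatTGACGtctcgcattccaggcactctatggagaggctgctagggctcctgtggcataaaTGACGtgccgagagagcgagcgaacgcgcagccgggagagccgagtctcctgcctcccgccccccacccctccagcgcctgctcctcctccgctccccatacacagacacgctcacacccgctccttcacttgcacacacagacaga
Fos (chr12:85473640-85473889, plus strand): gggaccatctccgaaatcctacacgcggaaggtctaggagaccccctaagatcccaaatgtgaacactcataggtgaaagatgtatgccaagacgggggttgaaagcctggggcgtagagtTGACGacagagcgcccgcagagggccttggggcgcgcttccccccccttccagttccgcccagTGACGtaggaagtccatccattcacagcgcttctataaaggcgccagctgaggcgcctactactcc
Nr4a2 (chr2:57124004-57124253, minus strand): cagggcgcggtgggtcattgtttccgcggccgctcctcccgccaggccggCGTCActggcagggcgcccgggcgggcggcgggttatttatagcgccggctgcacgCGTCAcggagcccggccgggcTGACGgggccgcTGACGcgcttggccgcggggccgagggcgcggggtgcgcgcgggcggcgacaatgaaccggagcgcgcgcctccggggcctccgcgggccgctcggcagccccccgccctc
The letters begin 60 bases before the start in Fosb, 129 and 66 bases before it in Fos, at 4 positions from 231 to 147 bases in Nr4a3 and at 4 positions from 200 to 111 bases in Nr4a2. On either strand they occurred in 17 of the 23 immediate early genes with a sequence (73.9%), and in 6 of the 8 called ones (75.0%), against 19.8% of 27025 genes with a sequence of this length. Some genes have several promoters, and counted by promoter the letters occurred in 55.6% of those of immediate early genes and 17.8% of all. The whole palindrome TGACGTCA, in which both letter runs overlap, occurred in 3 of the 23 genes, in 0 of the 8 called ones and in 1.77% of all genes. A match of letters is a description and does not show that a factor binds.

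Among the transcription factors, Fosb, a partner of Jun in AP-1, had 10.90, 10.69 and 10.30 at 6 months, against 11.33, 11.74 and 11.57 at 2 months, a change of -0.92 ± 0.17, or 1.89-fold lower. Nr4a3, an orphan nuclear receptor, had 9.82, 10.07 and 9.36 at 6 months and 10.52, 10.61 and 10.77 at 2 months (-0.89 ± 0.19). Egr2, a zinc finger factor, had 10.42, 9.998 and 9.45 at 6 months and 10.56, 10.80 and 10.76 at 2 months (-0.75 ± 0.20). In all 3 the ages did not overlap, with WT 6-month replicate 3 the lowest array. Fos had 9.44, 9.65 and 8.70 at 6 months and 9.72, 10.16 and 9.94 at 2 months (-0.67 ± 0.19). Fosl2, an AP-1 partner, changed by -0.57 ± 0.15, the nuclear receptor Nr4a2 by -0.54 ± 0.14 and the AP-1 factor Junb, whose ages overlapped, by -0.63 ± 0.20. Among the effectors, Gadd45b, a stress sensor linked to DNA demethylation, had 9.17, 8.50 and 8.83 at 6 months and 9.36, 9.62 and 9.71 at 2 months (-0.73 ± 0.15). Arc, a synaptic protein that drives AMPA receptor uptake, changed by -0.57 ± 0.16. Egr3 is measured by 3 probesets that disagree, and the brightest, which stands for it in the list, was not called.

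Fosb, Nr4a3 and Gadd45b kept their calls whichever of the 12 arrays was left out. With the hybridization controls as a covariate Fosb, Nr4a3, Gadd45b and Fos kept their calls and Egr2 lost its call (-0.65). The call of Egr2 was lost without WT 6-month replicate 3 (-0.50), that of Fos without WT 6-month replicate 3 or WT 2-month replicate 2 or 3 (-0.67 to -0.39) and that of Junb without WT 6-month replicate 3, WT 2-month replicate 2 or 3, Tg2576 6-month replicate 3 or Tg2576 2-month replicate 2 (-0.63 to -0.46). The call of Arc was lost without WT 6-month replicate 3 or WT 2-month replicate 2 (-0.46 to -0.41), that of Fosl2 without WT 6-month replicate 1 or WT 2-month replicate 2 or 3 (-0.49 to -0.47) and that of Nr4a2 without WT 6-month replicate 3 or WT 2-month replicate 2 (-0.44 to -0.43). In Tg2576 mice the same 30 genes had a median change of -0.32, with 2 called lower and 27 below 0. Their mean was 8.96, 9.13 and 9.03 in the Tg2576 6-month arrays and 9.37, 9.35 and 9.24 in the Tg2576 2-month arrays. The change differed between genotypes at p under 0.01 in limma for 0 of the 30 genes, where 0.779% of all probesets did. At that share a list this small can hold none, so the count does not show that the genotypes were alike. The time of day of dissection was not given in the sources used here.

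**Figure D2:**
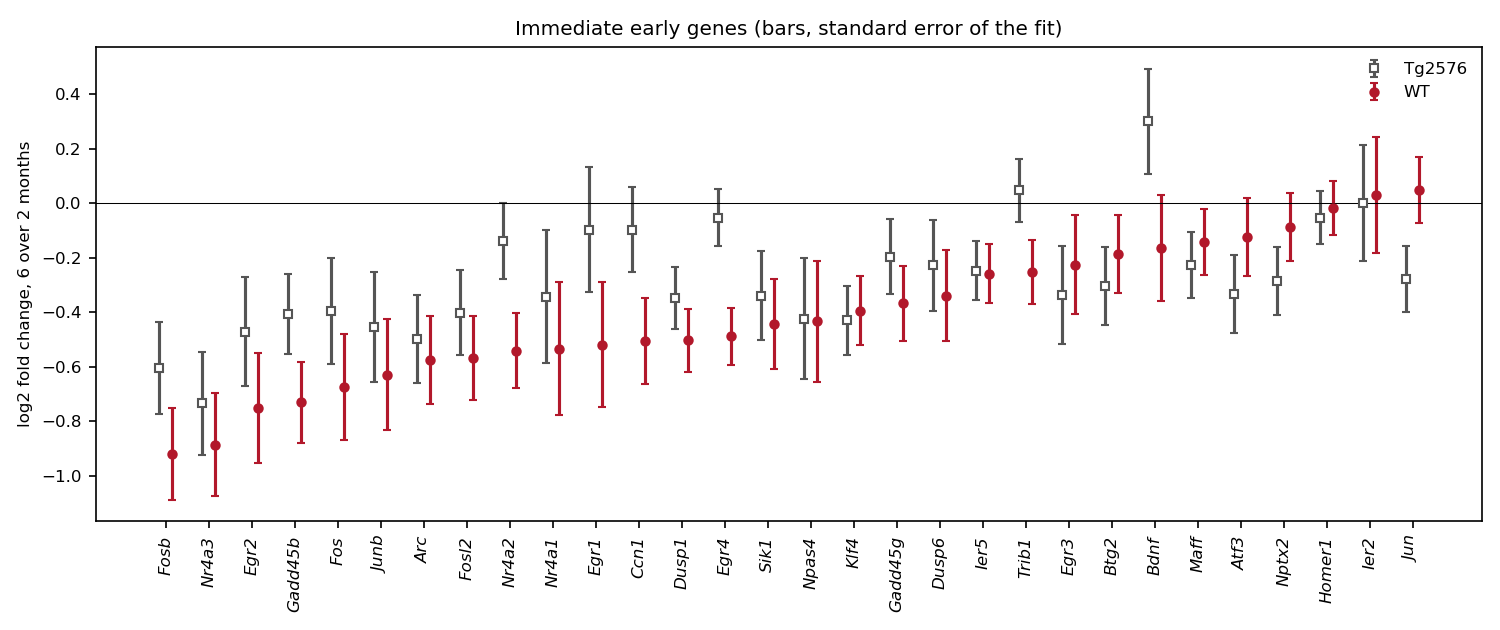
Log2 fold change of 30 immediate early genes at 6 over 2 months in Tg2576 (open squares) and WT mice (red circles), with the standard error of the fit. In Tg2576 27 genes lie below 0 and in WT 28 do, where Fosb is lowest at -0.92.

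Among myelin genes, each call was a fall. Of 20 genes of mature oligodendrocytes and myelin, 3 fell (0.293% of all probesets did), none rose and 10 had an unadjusted p under 0.05 (12% of all probesets), with a median change of -0.29 and 15 of 20 below 0. Mog, a surface protein of the myelin sheath, had 8.11, 7.91 and 8.15 at 6 months, against 9.13, 8.85 and 8.35 at 2 months (-0.72 ± 0.17). Cldn11, the tight junction protein of myelin, had 10.08, 10.33 and 10.21 at 6 months and 11.16, 10.75 and 10.60 at 2 months (-0.63 ± 0.15). Mbp, which compacts the sheath, had 10.13, 9.77 and 9.77 at 6 months and 10.38, 10.44 and 10.43 at 2 months (-0.53 ± 0.14). The ages did not overlap in these 3 genes. Cnp (-0.41), Mal (-0.45) and Tspan2 (-0.46) also did not overlap but missed the limits. Mag (0.00) and Mobp (-0.03) lay near 0, while Septin4 (0.27) lay above 0. In 8 of the 20 every 6-month value was below every 2-month value, as in 6.16% of all probesets. The mean over the 20 genes was 9.09, 9.215 and 9.18 in the WT 6-month arrays. It was 9.45, 9.44 and 9.221 in the WT 2-month arrays, so WT 2-month replicate 3 lay near the 6-month arrays. The call of Mog was kept without any 1 array but lost with the hybridization controls as a covariate (-0.52), where its limma p was 0.021. That of Cldn11 was lost without WT 2-month replicate 1 (-0.47) and that of Mbp without WT 6-month replicate 2 or 3 (-0.47 in each), both through the limit on the fold. With the hybridization controls as a covariate Cldn11 kept its call (-0.62) and Mbp lost it (-0.38). In Tg2576 mice the median was -0.13 and no gene was called. Of 15 genes of oligodendrocyte precursors and newly formed oligodendrocytes 0 were called and 1 had an unadjusted p under 0.05 in limma (median -0.03).

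Of the genes of GABAergic neurons, Gad2 and Penk rose. Gad2, one of the enzymes that make GABA, had 10.70, 10.77 and 10.66 at 6 months, against 10.03, 10.12 and 10.38 at 2 months (0.54 ± 0.11), with no overlap and with its call kept without any 1 array. Penk, the enkephalin precursor of granule and periglomerular cells, had 12.31, 12.22 and 12.36 at 6 months and 11.72, 11.76 and 12.13 at 2 months (0.43 ± 0.12), and its call was lost without WT 2-month replicate 1 or 2 (0.36 to 0.38). With the hybridization controls as a covariate Gad2 kept its call (0.48) and Penk lost it (0.38). These were the 2 called of 23 interneuron genes (1.45% of all probesets were called higher), whose median was 0.05. Gad1, which also makes GABA, was at 0.25 ± 0.12, the vesicular GABA transporter Slc32a1 at -0.02 ± 0.09, and Th, the tyrosine hydroxylase of dopaminergic periglomerular cells, at 0.06 ± 0.11, none of them called.

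Dlx2, a homeobox factor of interneuron precursors, had 10.51, 10.89 and 10.83 at 6 months, against 10.06, 10.08 and 10.39 at 2 months (0.57 ± 0.12), and kept its call without any 1 array but not with the hybridization controls as a covariate (0.36). It was the 1 gene called of 26 genes of neuroblasts and immature neurons, whose median was -0.08 (1.45% of all probesets were called higher). The other Dlx genes of the list had changes of 0.32 ± 0.11 for Dlx1, 0.35 ± 0.11 for Dlx5 and 0.40 ± 0.20 for Dlx6, none called, although Dlx1 and Dlx5 did not overlap between the ages. Of the 26 genes 16 lay below 0, and the ages did not overlap in 7 that were lower at 6 months and 3 that were higher (6.16% and 7.22% of all probesets). Igfbpl1 was lowest at -0.33 ± 0.10, not called, and doublecortin, Dcx, the usual marker of migrating neuroblasts, was at 0.04 ± 0.10. Of 28 cell cycle genes Mcm5, a subunit of the replicative helicase, was called higher (0.38 ± 0.11), a call lost without WT 6-month replicate 2 or 3 or WT 2-month replicate 1 or 3 (0.30 to 0.36), while 22 of the 28 lay below 0 with a median of -0.12 and the mitotic kinase Aurka was at -0.43 ± 0.11. None of 14 mitral and tufted cell genes was called in limma, with 4 at an unadjusted p under 0.05, among them Slc17a6, the vesicular glutamate transporter of these cells, at -0.41 ± 0.16.

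Genes of the nasal epithelium held the largest fall of all probesets. Cyp2g1, a cytochrome P450 of the olfactory mucosa, had 8.73, 6.25 and 6.002 at 6 months, against 9.37, 10.14 and 10.48 at 2 months (-3.001 ± 0.91, or 8.01-fold lower). Cyp2a5, another P450 of that tissue, had 10.17, 7.52 and 6.63 at 6 months and 9.93, 11.41 and 11.25 at 2 months (-2.76 ± 0.89), so that WT 6-month replicate 1 lay among the 2-month arrays. They were the 2 called of 15 nasal epithelium genes (0.293% of all probesets were called lower), and 13 of the 15 lay below 0 (median -0.22). The call of Cyp2g1 was lost without WT 6-month replicate 2 or 3 or WT 2-month replicate 2 or 3 (-2.93 to -2.51) and that of Cyp2a5 without WT 6-month replicate 2 or 3, WT 2-month replicate 2 or 3 or Tg2576 2-month replicate 1 (-2.76 to -2.02). Cbr2, a carbonyl reductase that is expressed in airway epithelium and in border macrophages, had 8.44, 8.28 and 8.55 at 6 months and 9.45, 9.86 and 10.26 at 2 months (-1.44 ± 0.40), a call lost without WT 6-month replicate 2 or WT 2-month replicate 3 (-1.36 to -1.23). With the hybridization controls as a covariate Cyp2g1 (-1.93), Cyp2a5 (-1.65) and Cbr2 (-1.23) all lost their calls.

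The mean over 16 olfactory sensory neuron genes was 8.68, 8.41 and 8.59 in the WT 6-month arrays, against 8.68, 8.92 and 8.92 in the WT 2-month arrays, so replicate 1 of both ages lay together. None was called in limma and 2 had an unadjusted p under 0.05, yet 15 of 16 lay below 0, with a median of -0.34. Omp, the defining protein of mature sensory neurons, was at -0.44 ± 0.27 and Cnga2, a subunit of their transduction channel, at -0.40 ± 0.23. Of 1091 olfactory receptor genes, which nasal neurons express, 6 were called higher (0.55%) and 2 lower (0.183%), below the 1.45% and 0.293% of all probesets. The largest of these falls was Olfr716, with 6.03, 5.08 and 5.26 at 6 months and 6.33, 6.31 and 6.20 at 2 months, a call lost without WT 6-month replicate 2 or 3 (-0.73 to -0.64). In Tg2576 mice Cyp2g1 had 6.43, 9.20 and 10.35 at 6 months and 9.79, 9.41 and 12.08 at 2 months, and the ages overlapped. With the mean of the nasal epithelium genes as a covariate, an alternative chosen after seeing the data, 212 probesets were called higher and 103 lower.

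**Figure D3:**
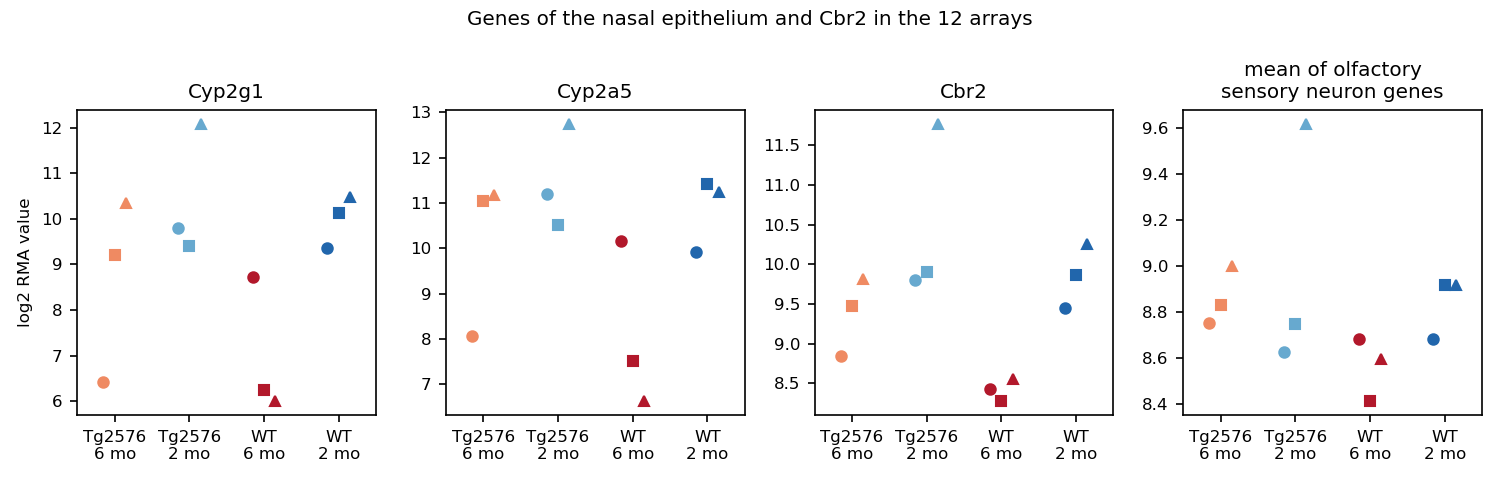
Log2 RMA values of Cyp2g1, Cyp2a5 and Cbr2 and the mean of 16 olfactory sensory neuron genes in all 12 arrays, by genotype and age, with circles, squares and triangles for replicates 1, 2 and 3. WT 6-month replicates 2 and 3 are low for both P450 genes, and Tg2576 2-month replicate 3 is the highest array in all 4 panels.

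Few genes of macrophages and of other cells of the borders and vessels were called. Mrc1, the mannose receptor of border macrophages, had 6.24, 6.92 and 6.68 at 6 months, against 7.06, 7.73 and 7.08 at 2 months (-0.68 ± 0.19), a call lost without WT 6-month replicate 1 or WT 2-month replicate 2 (-0.49 to -0.46). With Cbr2 it was called among 10 border macrophage genes (0.293% of all probesets were called lower), while Cd163 (-0.01) and Lyve1 (0.09) were not called. With the nasal epithelium genes as a covariate Cbr2 lost its call (-0.75) and Mrc1 kept its call (-0.75). Among 17 homeostatic microglia genes only the transcription factor Sall1 was called, and it was higher (1.45% of all probesets were). It had 9.87, 9.80 and 9.90 at 6 months and 9.28, 9.31 and 9.52 at 2 months (0.49 ± 0.11), and P2ry12, a purinergic receptor of microglia, was at -0.36 ± 0.15. Of 17 activated microglia genes 0 were called and 1 had an unadjusted p under 0.05 in limma. Of 20 leptomeningeal fibroblast genes and 27 interferon and antigen presentation genes, 0 were called and 0 had an unadjusted p under 0.05 in limma. Of 12 ependymal and choroid plexus genes 11 lay below 0 (median -0.25) with 0 called and 4 at an unadjusted p under 0.05 in limma, Ccdc153, a gene of multiciliated cells, being furthest at -0.49 ± 0.15. The matrix glycoprotein Tnc changed by -0.56 ± 0.16, with an overlap of the ages and a call lost without WT 6-month replicate 3 or WT 2-month replicate 1 or 2 (-0.49 to -0.44).

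Clock genes were called in both directions. Cry2, a repressor of the CLOCK-BMAL1 complex, had 10.48, 10.81 and 10.75 at 6 months, against 9.90, 9.98 and 10.41 at 2 months (0.59 ± 0.13), with no overlap and its call kept without any 1 array but lost with the hybridization controls as a covariate (0.39). Nr1d1, which encodes the repressor REV-ERBα, had 9.79, 10.23 and 10.25 at 6 months and 9.50, 9.69 and 9.67 at 2 months (0.47 ± 0.13). Nfil3, a repressor of D-box genes, had 9.58, 8.96 and 9.22 at 6 months and 9.65, 9.81 and 9.86 at 2 months (-0.52 ± 0.15). These 2 rises and 1 fall were the calls among 19 clock genes (1.45% of all probesets were called higher and 0.293% lower), with a median of 0.17. Nr1d2 (0.38), Bhlhe41 (0.53) and Per1 (-0.34) did not overlap between the ages, like 7.22% of all probesets on the higher and 6.16% on the lower side, but missed the limits, and Arntl, which encodes BMAL1, was at -0.19 ± 0.13. The call of Nr1d1 was lost without WT 6-month replicate 2 or 3 or WT 2-month replicate 1 (0.39 to 0.41) and that of Nfil3 without WT 6-month replicate 2 or 3 or WT 2-month replicate 2 or 3 (-0.50 to -0.37). Nr1d1 (0.23) and Nfil3 (-0.25) also lost their calls with the hybridization controls as a covariate. In Tg2576 mice the 19 genes had a median of 0.20, with none called.

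Genes of the ribosome and of histones rose in small numbers. Of 58 cytosolic ribosomal protein genes 4 were called higher (1.45% of all probesets were) and 48 lay above 0, with a median of 0.12. Rpl6 had 11.98, 12.29 and 12.15 at 6 months, against 11.39, 11.66 and 11.80 at 2 months (0.52 ± 0.12), and its call was kept without any 1 array but lost with the hybridization controls as a covariate (0.36). Rpl11 (0.41 ± 0.13) lost its call without WT 6-month replicate 2 or 3 or WT 2-month replicate 1 or 2 (0.35 to 0.43), and Rpl21 (0.40 ± 0.13) without WT 6-month replicate 2 or 3, WT 2-month replicate 1 or 2, Tg2576 6-month replicate 1, 2 or 3 or Tg2576 2-month replicate 2 (0.27 to 0.43). Fau (0.39 ± 0.13) lost its call without WT 6-month replicate 1, 2 or 3, WT 2-month replicate 1 or 2, Tg2576 6-month replicate 1, 2 or 3 or Tg2576 2-month replicate 1 or 2 (0.25 to 0.43). The mean over the 58 genes was 11.37, 11.33 and 11.38 in the WT 6-month arrays and 11.07, 11.22 and 11.37 in the WT 2-month arrays, so WT 2-month replicate 3 lay within the 6-month range. Of 77 nuclear genes of oxidative phosphorylation 0 were called and 10 had an unadjusted p under 0.05 in limma, near the 12% of all probesets (median 0.06). Of 54 replication-dependent histone genes 6 were called higher (1.45% of all probesets were), 5 of them H2B genes, with 0.64 ± 0.17 for H2bc18, 0.55 ± 0.14 for H2bc12, 0.51 ± 0.15 for H2bc7, 0.43 ± 0.14 for H2bc3 and 0.42 ± 0.14 for H2bc4. Their list median was 0.00. H2B genes are near-identical copies whose probes may not tell them apart. The call of H2bc12 was kept without any 1 array but lost with the hybridization controls as a covariate (0.44), that of H2bc18 was lost without WT 2-month replicate 3 (0.54) and that of H2bc7 without WT 6-month replicate 1, 2 or 3 or WT 2-month replicate 1 (0.36 to 0.51). The call of H2bc3, whose ages overlapped, was lost without WT 6-month replicate 2 or 3, WT 2-month replicate 1 or 2, Tg2576 6-month replicate 1, 2 or 3 or Tg2576 2-month replicate 1, 2 or 3 (0.32 to 0.45), and that of H2bc4, whose ages also overlapped, without WT 6-month replicate 1 or 2, WT 2-month replicate 1 or 2, Tg2576 6-month replicate 1, 2 or 3 or Tg2576 2-month replicate 1, 2 or 3 (0.26 to 0.42). The H4 gene H4c4 (0.40 ± 0.11) lost its call without WT 2-month replicate 1 (0.29).

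Genes of synapses, channels and matrix gave few calls. No gene was called among 20 glutamate receptor genes (2 at an unadjusted p under 0.05 in limma, where 12% of all probesets were), 15 GABA and glycine receptor genes (2), 29 voltage-gated potassium channel genes (4), 24 presynaptic vesicle genes (6), 46 axon guidance genes (12), 28 collagen genes (3) and 17 genes of the insulin-like growth factor system (4). Their medians lay between -0.07 and 0.04. The glutamate receptor subunit Grik5 was highest of its list at 0.33 ± 0.10 and the guidance cue Sema5a, with no overlap, was at -0.44 ± 0.12. The clustered protocadherin Pcdhb2, an adhesion protein of neuronal identity, was called higher (0.38 ± 0.12), a call lost without WT 6-month replicate 2 or WT 2-month replicate 2 or 3 (0.30 to 0.34), and 15 of 20 genes of its family lay above 0 (median 0.16). Of 319 vomeronasal receptor genes 2 were called higher (0.627%) and 0 lower, below the 1.45% and 0.293% of all probesets. They were Vmn1r176 (0.44 ± 0.13), a call lost without WT 6-month replicate 3 or WT 2-month replicate 2 (0.30 to 0.40), and Vmn1r80 (0.42 ± 0.13), a call lost without WT 6-month replicate 1 or 2, WT 2-month replicate 1 or 3 or Tg2576 6-month replicate 2 (0.34 to 0.42).

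The lists in this paragraph held no call in limma. An unadjusted p under 0.05 was found for 3 of 13 olfactory ensheathing glia genes, 2 of 18 astrocyte genes, 3 of 16 endothelial genes, 2 of 14 pericyte and smooth muscle genes, 1 of 16 lymphocyte and plasma cell genes and 1 of 8 blood and neutrophil genes, beside 12% of all probesets. It was found for 5 of 19 glucocorticoid-responsive genes, 1 of 17 heat shock and chaperone genes and 1 of 19 cholesterol synthesis genes.

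Neither prohibitin was called. Phb had 11.47, 11.45 and 11.44 at 6 months, against 11.55, 11.51 and 11.41 at 2 months (-0.04 ± 0.09), and Phb2 had 11.18, 11.12 and 11.05 at 6 months and 10.96, 10.84 and 11.09 at 2 months (0.15 ± 0.10). The ages overlapped in both. Both encode subunits of the scaffold in the inner mitochondrial membrane that the study also followed as protein. Of 12 genes of prohibitins and inner membrane quality control, 1 was called lower (0.293% of all probesets were) and 0 higher. It was Spg7, described above, and the list median was -0.01. Of 17 kinase and substrate genes whose proteins the study followed by immunoblot 0 were called and 3 had an unadjusted p under 0.05 in limma, with changes from -0.43 for Mapk10, a JNK, to 0.35 for Pdpk1, the kinase that activates Akt. Of 15 genes of the App family and its processing 0 were called and 1 had an unadjusted p under 0.05 in limma, and Ncstn, a subunit of γ-secretase, was at -0.37 ± 0.13.

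**Figure D4:**
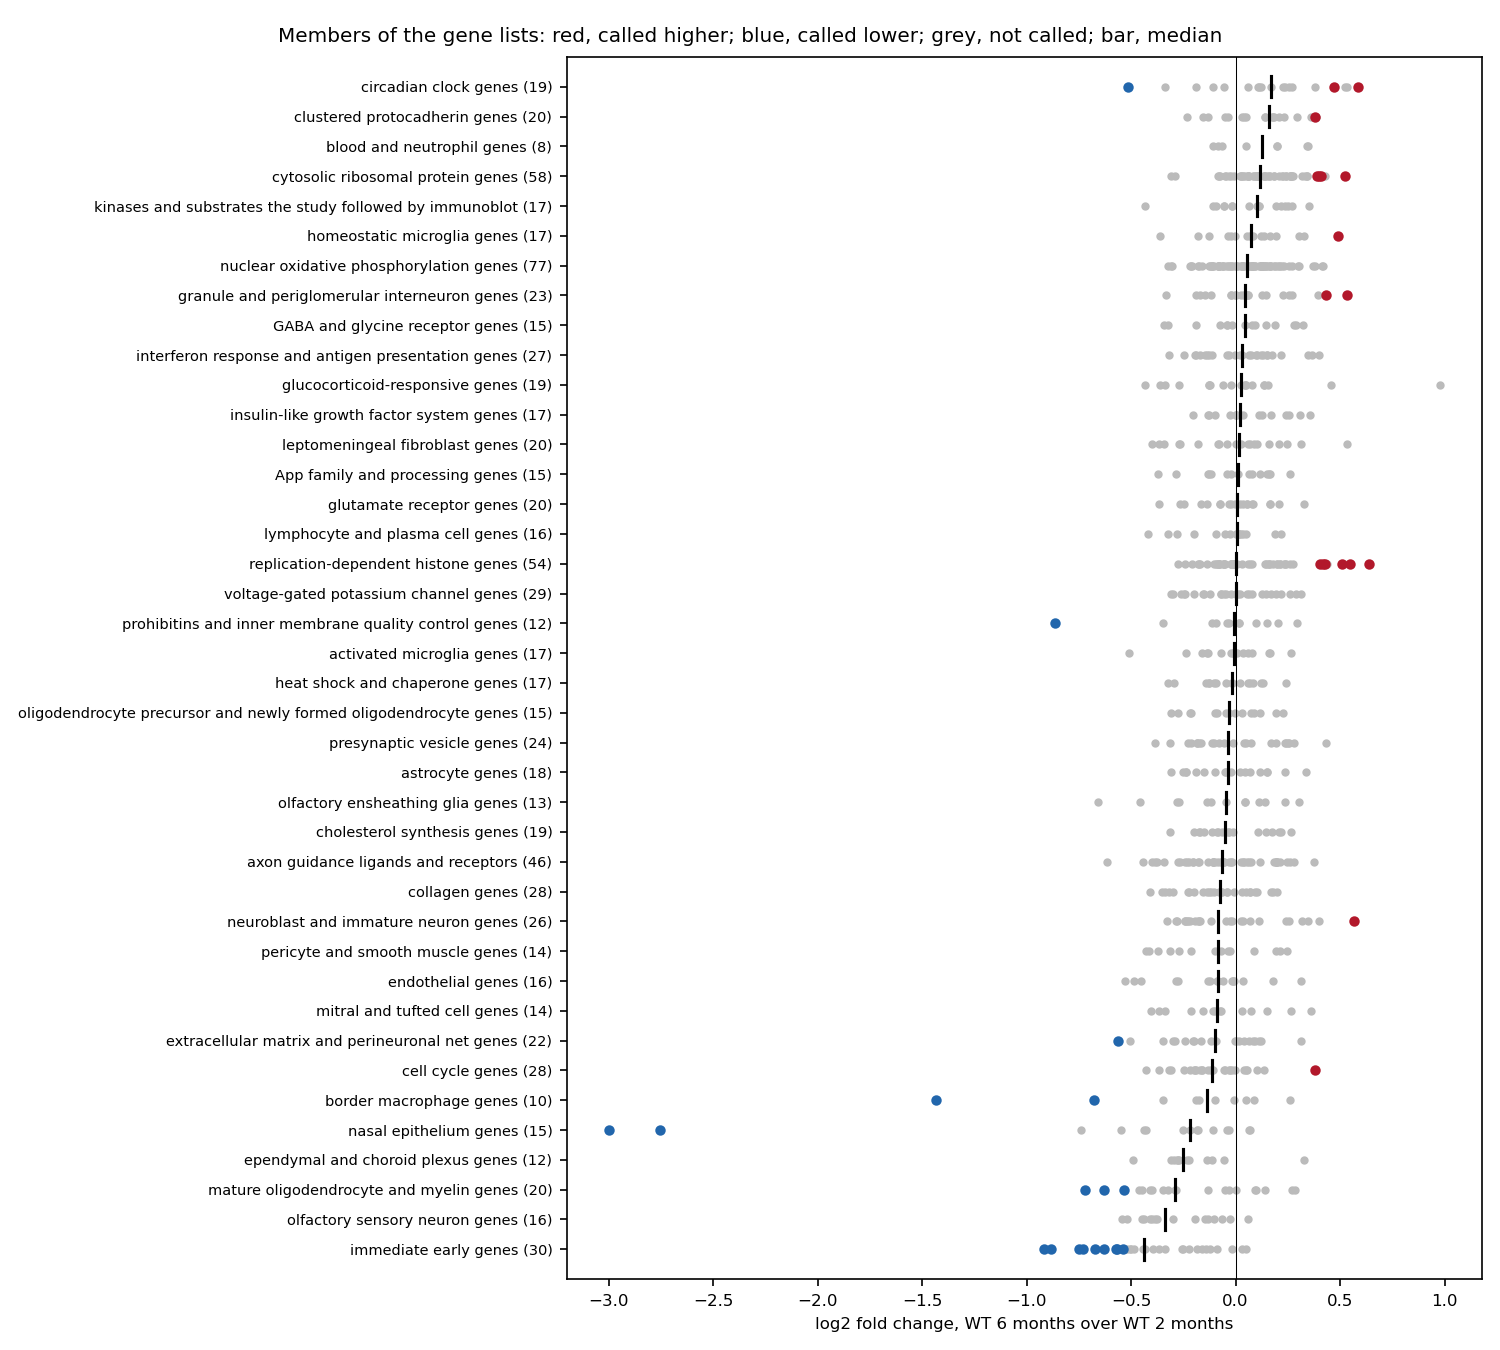
Log2 fold change, WT 6 months over WT 2 months, of every measured gene (dots) in the gene lists other than the receptor families, ordered by their median (bars), with the number of genes in parentheses; red and blue mark genes called higher and lower. Immediate early genes lie furthest below 0 with a median of -0.44, and clock genes furthest above it with 0.17.

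The change over the same interval in Tg2576 mice was measured on other arrays. Its p-values share with those of WT mice the estimate of the spread of each probeset. A probeset with a small shared spread is thus favoured for a call in both genotypes, and shared calls are not an independent recurrence. In Tg2576 mice 80 probesets were called higher (0.36%) and 37 lower (0.167%). In limma 0 had an adjusted p under 0.05 and 1247 an unadjusted p under 0.05. Of the 387 WT calls, 18 (4.65%) were called in the same direction in Tg2576 mice, which is 15.4% of the 117 Tg2576 calls, and 0 in the opposite direction. The 18 were 14 rises and 4 falls. Of the 322 WT rises 74.2% lay above 0 in Tg2576 mice, with a median of 0.12, where 49% of all probesets did, and of the 65 WT falls 69.2% lay below 0, with a median of -0.14. Across all probesets the 2 changes correlated at r = 0.191, which is across genes that are not independent replicates.

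Irak3, at 0.84 in Tg2576 and 1.19 in WT mice, led the shared rises. Xdh, the xanthine dehydrogenase of purine breakdown, had 8.16, 8.26 and 8.12 at 6 months and 7.55, 7.29 and 7.28 at 2 months in Tg2576 mice, and 8.01, 7.75 and 7.52 at 6 months and 7.37, 7.39 and 7.27 at 2 months in WT mice. Capn6, a calpain-like protein, rose by 0.57 in Tg2576 and 0.64 in WT mice, Scn7a, a sodium-sensing channel of glia, by 0.64 and 0.44, and Ano3, an anoctamin, by 0.48 and 0.56. Stil, a centriole duplication factor, rose by 0.38 in Tg2576 and 0.59 in WT mice, Brca2, a DNA repair protein, by 0.39 and 0.57, and Lrrc28 by 0.38 and 0.56. The 4 shared falls were Fosb (-0.60 in Tg2576 and -0.92 in WT mice), Nr4a3 (-0.73 and -0.89), Sel1l2 (-0.56 and -0.56) and the predicted gene Gm12888 (-0.59 and -0.53). Sel1l2 and Gm12888 were dim, with WT means of 4.56 and 5.63 at 6 months and 5.13 and 6.15 at 2 months. Array medians lay between 8.24 and 8.27. In WT mice Irak3, Stil, Brca2, Lrrc28, Fosb and Nr4a3 kept their calls without any 1 array. The call of Xdh was lost without WT 6-month replicate 1 or WT 2-month replicate 1 or 3 (0.29 to 0.43), that of Capn6 without WT 6-month replicate 2 or 3 or WT 2-month replicate 3 (0.44 to 0.65), that of Scn7a without WT 6-month replicate 2, WT 2-month replicate 2 or 3 or Tg2576 6-month replicate 1, 2 or 3 (0.28 to 0.44) and that of Ano3 without WT 2-month replicate 1 or 2 (0.49 in each). The call of Sel1l2 was lost without WT 6-month replicate 3 or WT 2-month replicate 1 (-0.49 to -0.46) and that of Gm12888 without WT 6-month replicate 2 or WT 2-month replicate 2 (-0.42 to -0.41).

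The change with age differed between Tg2576 and WT mice at p under 0.01 for 173 probesets (0.779%), while 0 had an adjusted p under 0.05 in limma and 1268 an unadjusted p under 0.05. These 173 hold 51 of the 387 WT calls, 42 rises and 9 falls. The WT change is itself a term of this difference, so WT calls are favoured among them by construction. Foxe3, a forkhead factor of the lens, had 5.65, 6.03 and 5.72 at 6 months and 6.004, 5.81 and 6.07 at 2 months in Tg2576 mice, and 6.30, 6.19 and 6.19 at 6 months and 5.60, 5.56 and 5.78 at 2 months in WT mice. Slc24a5, a potassium-dependent sodium-calcium exchanger, was at -0.34 in Tg2576 and 0.58 in WT mice (0.33 in WT with the hybridization controls as a covariate, its call lost), and Noa1, a mitochondrial GTPase, at -0.17 and 0.56. Dlx2 was at 0.00 in Tg2576 and 0.57 in WT mice, and Rpl6 at -0.08 and 0.52. On the falling side, the membrane scaffold Flot2 was at 0.11 in Tg2576 and -0.59 in WT mice, its WT call lost without WT 6-month replicate 2 (-0.46). Spg7 was at 0.18 and -0.86, its WT call lost without WT 2-month replicate 1 (-0.67). Flot2 (-0.48) and Spg7 (-0.49) also lost their WT calls with the hybridization controls as a covariate.

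**Figure D5:**
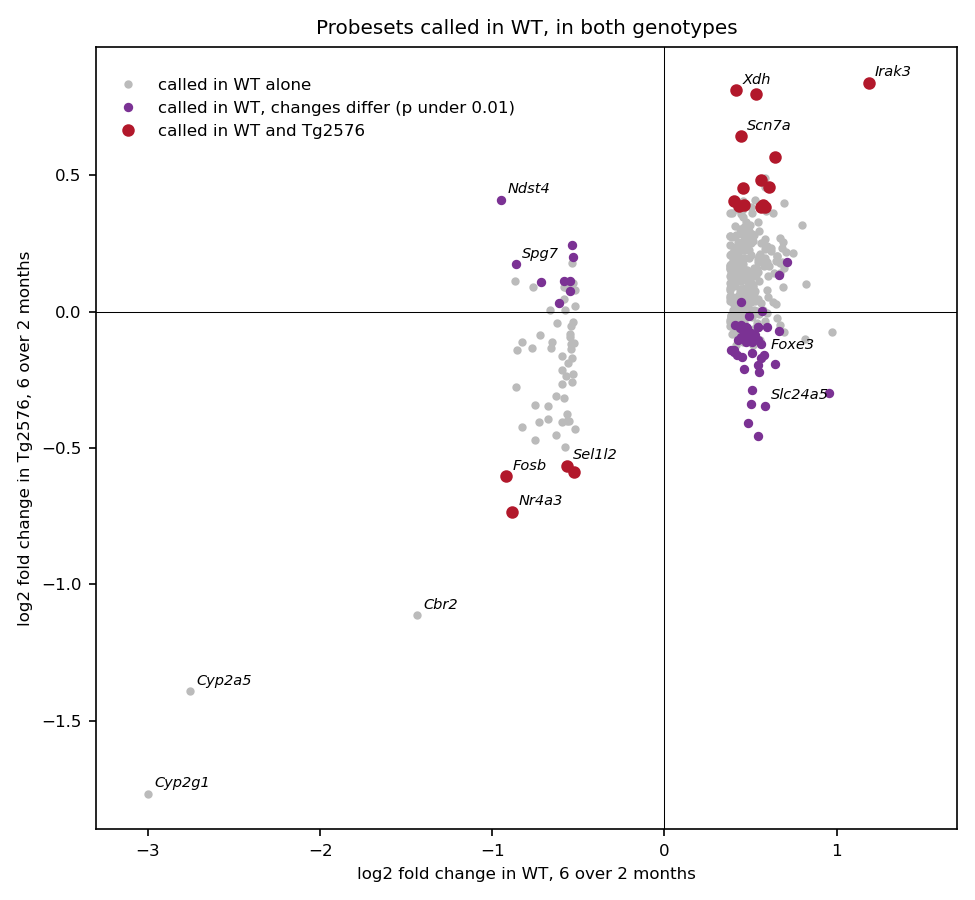
Log2 fold change at 6 over 2 months in WT (x axis) and Tg2576 mice (y axis) for the 387 probesets called in WT; red, called in the same direction in both genotypes; purple, changes that differ between genotypes at p under 0.01; grey, the rest. Irak3 is highest in WT at 1.19, and Cyp2g1 and Cyp2a5 lie lowest at -3.00 and -2.76.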

How the data were processed

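Total RNA of each OB (1 ng) was amplified, biotinylated and hybridized to Clariom S mouse arrays. The authors deposited 1 table of log2 intensities for the 12 arrays, background-corrected, normalized and summarized by RMA, and these log2 values were used as deposited. RMA makes array distributions alike, so a global shift cannot be seen. The genome build behind the probesets was not given in the sources used here. Of 29129 probesets, 6923 controls were left out, and 19572 of the 22206 tested had 1 gene symbol in GEO's platform annotation. Group means were fitted over all 12 arrays with limma 3.58.1 in R 4.3.3, which shares 1 estimate of the spread, and the age change in Tg2576 minus that in WT was a contrast of the same fit. Calls needed p under 0.01 and a fold above 1.3 or below 0.7, after the study's limits. The fit was first tested on simulated data. A gene was represented by its brightest probeset. Named genes were the 12 largest non-overlapping calls in each direction, up to 5 called members of each of 42 gene lists (or the 2 largest changes), up to 8 calls in each direction shared with Tg2576 mice, and the 5 calls in each direction that differed most from them; other list members given by value were chosen after their values were seen. The members and lists were chosen with earlier results of these data known, and the histone list was renamed to the platform's symbols after results were seen. The arrays of a group came from 3 mice by the series' design. An exact permutation test of 3 against 3 cannot go below p = 0.10 and was not used. Left-out arrays, normalizations, filters, covariates, a replicate block and other limits were tried as alternatives.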

Additional observations from a re-analysis of the deposited data

Results flagged for a closer look

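Among the named genes called in WT mice, the change with age in Tg2576 minus that in WT mice had a limma p under 0.01 for 14, none of which passed adjustment over all probesets (lowest adjusted p = 0.842). This difference was -0.93 for Slc24a5, -0.74 for Foxe3, -0.73 for Noa1, -1.001 for 1700001F09Rik and -0.89 for Olfr965. It was -0.61 for Rpl6, -0.65 for H2bc12 and -0.56 for Dlx2. It lay above 0 for genes that fell in WT mice, with 0.70 for Flot2, 0.73 for Ralgapa2, 1.04 for Spg7, 0.64 for Tas2r119, 0.62 for Cntnap5a and 1.36 for Ndst4. The WT change is subtracted in this difference, and the genes were picked by their WT calls. A sign opposite to the WT change therefore follows in part from that choice.

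In the control probesets, which were left out of the tests, the mean of the 9 hybridization controls was 12.43 in WT 6-month replicate 2. The 10 arrays other than this one and WT 6-month replicate 3 lay between 11.09 and 11.54. With this mean as a covariate, 93 probesets were called higher and 32 lower at 6 months in WT mice.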

How the results depend on the processing

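The 322 rises became 206 in a fit to the 6 WT arrays alone, 99 without WT 6-month replicates 2 and 3, 93 with the hybridization controls and 212 with the nasal epithelium genes as a covariate, the last chosen after seeing the data. They became 1 at a Benjamini-Hochberg adjusted p under 0.05 and 502 at p under 0.05 with the same fold limits, and ranged from 197 to 617 with 1 array left out. The 65 falls became 121 with array weights, 34 without probesets below the median level, 32 with the hybridization controls and 103 with the nasal genes as a covariate, 215 with a fold limit of 1/1.3, 295 with no fold limit, 0 adjusted and 127 at p under 0.05, and ranged from 43 to 243. The 117 Tg2576 calls became 207 with array weights, 59 without dim probesets, 179 with a fold limit of 1/1.3, 253 with none, 0 adjusted and 233 at p under 0.05, and ranged from 90 to 220. The 173 differences between genotypes became 471 with array weights, 112 without dim probesets, 64 with the hybridization controls and 98 with leptomeningeal genes as a covariate, 0 adjusted and 1268 at p under 0.05, and ranged from 99 to 759. The cause of these shifts was not tested.

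The sign turned for genes that were not called. Without WT 6-month replicates 2 and 3, Cst7 was at -0.12, Isg15 at -0.062, Cd3e at 0.20, Omd at -0.047 and Hspa1b at 0.11. With the hybridization controls as a covariate, Cst7 was at -0.14, Cd3e at 0.014, Phb at 0.027 and Hspa1b at 0.059. Phb was at 0.0093 with the sensory neuron genes and at 0.012 with the nasal genes as a covariate, and Stoml3 at 0.080 with the nasal genes. With 1 array left out Ide ranged from -0.64 to 0.0067, the last without WT 6-month replicate 1.

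The arrays of the 2 ages share replicate numbers. WT arrays with the same number deviated from their group means with correlations of -0.05, 0.16 and 0.09 across probesets, and 3 of 6 WT arrays were closest to their own number. So few arrays cannot settle whether replicates were matched between the ages. With the replicate number as a block, 321 probesets were higher and 68 lower in WT, 124 were called in Tg2576 and 187 differed between genotypes.

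With 3 arrays a group, their number limits the precision. Dim probesets give compressed fold changes.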
